A study of Mus musculus with 6 samples.

Results

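The axoneme is the microtubule core of the sperm tail, and 68 of the 57010 genes in the count table encode its structure or its assembly by name. They were taken as every gene whose symbol is a numbered Cfap, Drc, Dnai, Dnal, Dnaaf or Rsph gene, together with Dnali1, Spag6l, Spag16, Spag17 and Hydin. Dynein heavy chains were not included. RNA had been sequenced from immunoprecipitates of PNMA4, a protein whose gene (Moap1 in mouse tables) derives from a retrotransposon capsid gene, to find RNA that is recovered with it from mouse testis. The 6 libraries were 3 from wild-type mice (C57BL/6J) and 3 from mice lacking PNMA4 (PNMA4-null libraries), in which the antibody has no target. Among the PNMA4-null libraries, replicates 1 and 2 were Pnma4 KO, and replicate 3 came from mice lacking both Pnma1 and Pnma4 (DKO), which the submitters counted as the third replicate of samples lacking PNMA4. The labels give the knockouts by genotype alone, without strain or how the alleles were made. Each library came from a lysate of 8 pooled testes collected at 3 months. The lysate was spun over 25% and 70% sucrose, material from the meniscus of the 70% layer was separated on iodixanol, and fractions 8 and 9 went into the immunoprecipitation.

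In the axoneme, dynein arms on the outer microtubule doublets slide the doublets past each other. The central apparatus, the radial spokes that reach towards it and the nexin-dynein regulatory complex between doublets control this sliding. Dynein arms are put together in the cytoplasm by preassembly factors before they enter the tail, and further proteins line the inside of the doublets. Transcripts of these genes are made from meiosis onwards and are abundant in spermatids, where the tail is built, and loss of many of them causes immotile or malformed sperm.

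No axoneme gene passed the test for a difference between immunoprecipitates with and without PNMA4, and most were bounded within a 2-fold difference. Of the 68 members, 66 passed the filter on low counts, and the edgeR quasi-likelihood test called 0 higher and 0 lower in wild type at a Benjamini-Hochberg adjusted p of 0.05 (lowest adjusted p = 1.00). Among all 13413 genes tested, 0.0224% were called higher and 0.0373% lower, or 0.0596% in either direction. At an unadjusted p under 0.05, 1 member (Drc3) was higher and 0 were lower, where 1.27% of all genes tested were higher and 1.65% lower. DESeq2 and limma-voom also called 0 members, with 1 and 5 at an unadjusted p under 0.05. With 1 library left out, members at an unadjusted edgeR p under 0.05 ran from 0 (without wild-type replicate 1) to 11 (without wild-type replicate 3). The matching shares of all genes under these alternatives were not counted. The 95% interval of the log2 fold change (wild type over lacking PNMA4) lay within 1 of 0, that is within a 2-fold difference, for 61 of the 66 members (92.4%), against 71.1% of all genes tested. The other 5 were Drc3, Cfap100, Rsph14, Rsph9 and Dnaaf4. The members had a higher median level than all genes tested, and for this share no genes of matched level were compared. The share was 100% in a list of other axonemal genes and 91.7% in a list of intraflagellar transport genes. Input RNA was not analysed here, and every level below describes immunoprecipitated RNA. In these pooled tissue lysates fewer cells of a type and less RNA per cell cannot be told apart.

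**Figure D1:**
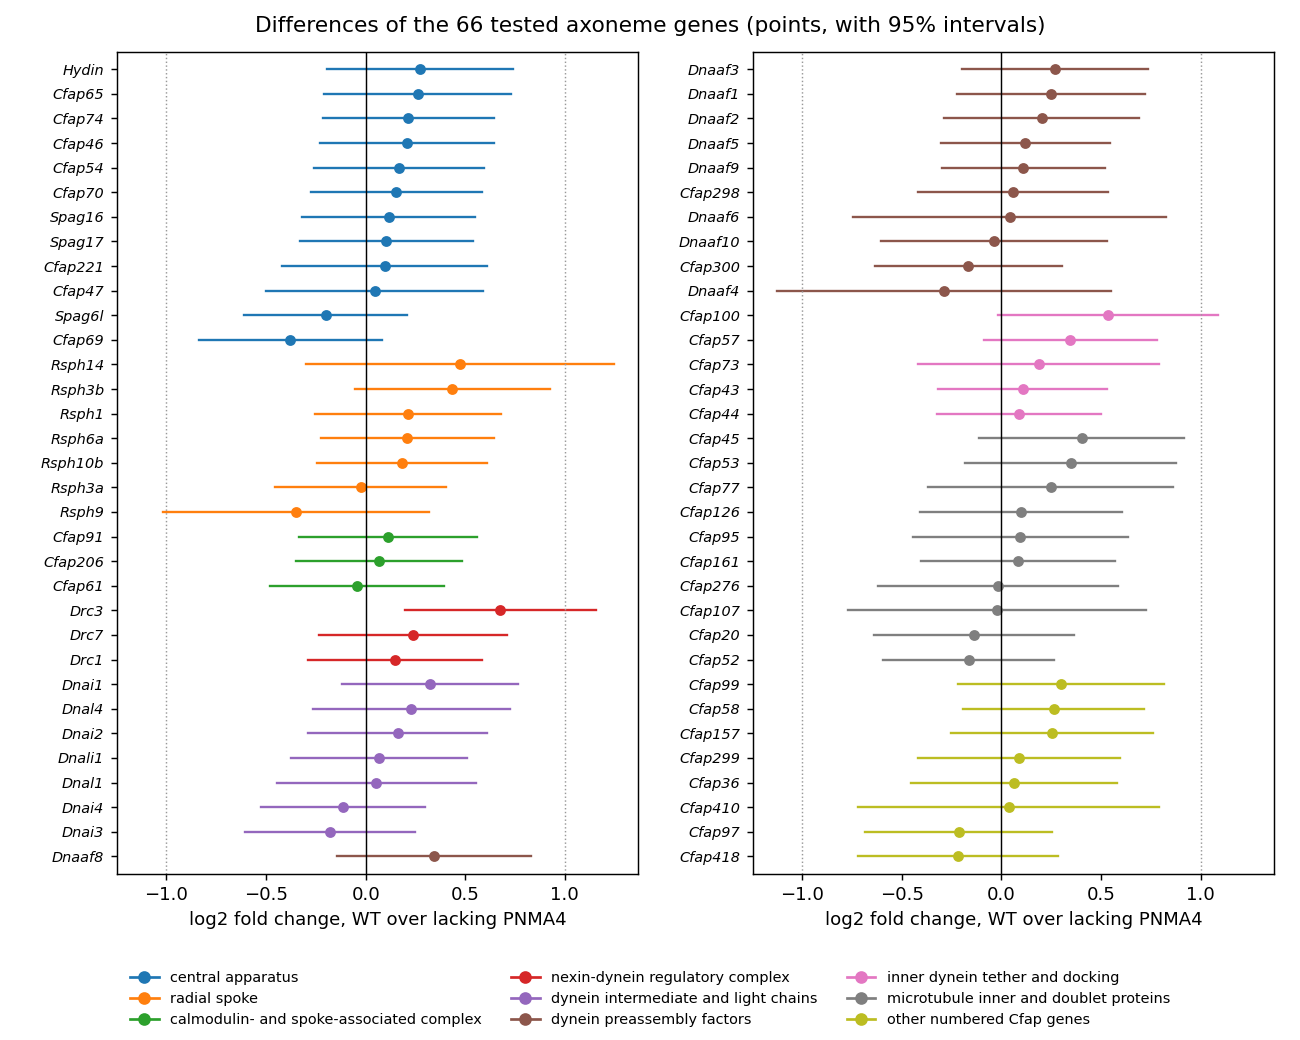
Log2 fold change of wild type over lacking PNMA4 for each of the 66 tested axoneme genes (point) with its 95% interval (line), coloured by role and ordered within role. Dotted lines mark a 2-fold difference in either direction. Of the 66 intervals, 61 lie between the dotted lines, and that of Drc3 alone does not include 0.

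Total counts ran from 3138657 to 6367930 per library, of which the 68 members held 16299 to 50473. Before scaling, members took 0.652%, 0.825% and 0.619% of counts in the wild-type libraries, and 0.556% and 0.675% in the Pnma4 KO libraries and 0.341% in the DKO library. The DKO library, lowest of the 6, also had 57.5% of its counts in the ribosomal RNA-like gene Rn18s-rs5, against 27.3% to 36.1% in the other 5. Levels are therefore given as counts per 1000000 of the TMM-scaled library size (CPM), in which the members summed to 6220 ± 371 CPM in wild-type libraries and 5712 ± 375 CPM in PNMA4-null libraries (SD, n = 3 each). The single sums were 6411, 6456 and 5793 CPM in wild-type libraries, against 5543, 6142 and 5450 CPM in PNMA4-null libraries. The groups overlapped, since wild-type replicate 3 lay below Pnma4 KO replicate 2. CPM is not divided by transcript length, so it is used here only to compare libraries, not one gene with another.

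The labels and the tissue were checked first. Moap1 had 7, 26 and 27 counts in wild-type libraries and 0 in every library lacking PNMA4, and Pnma1 had 0 counts in the DKO library alone. All 10 markers of elongating spermatids and all 10 of round spermatids had counts, summing to 3025 ± 517 and 327 ± 46.6 CPM in wild-type libraries, against 3013 ± 173 and 345 ± 33.5 CPM in PNMA4-null libraries (SD, n = 3 each). The 8 spermatocyte markers summed to 1067, 1082 and 1091 CPM in wild-type libraries, against 944, 1033 and 954 CPM in PNMA4-null libraries, so that all wild-type libraries lay above the others. By gene, 4 of these 8 markers had a positive log2 fold change and 4 a negative one, with a median of 0.01 and 0 called. The summed spermatocyte markers and the summed axoneme genes thus both averaged higher in wild type, though single spermatocyte markers went both ways. The part of spermatocyte content in the axoneme values was not tested. Leydig, Sertoli and peritubular and vascular markers were high in the DKO library, at 2.32, 1.71 and 1.57 times the mean of the other 5 libraries, while the summed axoneme genes stood there at 0.898 times. Motile cilia also occur on the efferent duct, and the 10 markers of that duct and of multiciliated epithelium summed to 186, 192 and 204 CPM in wild-type libraries, against 180, 174 and 173 CPM in PNMA4-null libraries, without overlap. Most of that sum was Deup1 and Muc16. Of the 5 tested, Muc16 (0.56), Slc9a3 (0.26) and Deup1 (0.01) had positive log2 fold changes. Esr1 (−0.43) and Lrp2 (−0.48) had negative ones, so the sum does not speak for each marker. Esr1 had 7.10 to 17.1 CPM over the 6 libraries, and Lrp2, Slc9a3 and Ccno had 0.714 to 3.00 CPM with counts in all 6 libraries. Scgb1a1 was at 0 in 5 libraries, and Mcidas, Pax8 and Aqp1 reached at most 0.317, 0.669 and 1.27 CPM in any library. Of 9 markers listed for the neighbouring epididymis, 6 had counts. They summed to 12.62, 9.08 and 11.37 CPM in wild-type libraries, against 24.12, 16.001 and 30.77 CPM in PNMA4-null libraries, also without overlap. Most of that sum was Cst8, at 6.78 to 18.4 CPM. Only Cst8 and Crisp1, 2 of the 9, passed the filter, and Lcn8 and Cst11 each had 1 count in Pnma4 KO replicate 2 alone. The epididymis marker Crisp1 was called lower in wild type (edgeR adjusted p = 0.00244), while Defb20, Lcn5 and Spink11 were at 0 in all libraries. The part of these tissues in the axoneme values was not tested.

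Promoters were not used in the choice of the genes, and a minority of the members held an RFX motif there. RFX transcription factors, which switch on cilium and flagellum genes, bind an inverted repeat called the X-box, whose half-site was searched as GTTGCCA on both strands. Among the 46 members with a RefSeq promoter window (GRCm38.p6, 250 bases before to 50 after an annotated gene start), 11 held the half-site (23.9%), against 840 of 17492 protein-coding genes (4.80%). Of 34 other axonemal genes with a window, 8 held it (23.5%). The full X-box, searched as GTTNCC and GGNAAC with 2 free bases between them, occurred in 2 members (Cfap298 and Dnaaf6, 4.35%) and in 0.497% of all these genes. The motif TGTTTAC, bound by the cilium regulator FOXJ1, occurred in 4.35% of members and 3.45% of all, and the cyclic AMP response element TGACGTCA in 2.17% and 2.54%. The sequences below are those half-sites that lie wholly before the start used for their promoter window and end within 40 bases of it. Half-sites that reach or follow that start were left out. This start can lie inside the RefSeq span of the gene. Below, the Hydin half-site crosses the beginning of its RefSeq span, and the other half-sites lie inside the spans of their genes. Each sequence is shown 5′ to 3′ in the direction of the gene, with the half-site (or its reverse complement TGGCAAC) in capitals.
Hydin, chr8:110266952-110266976, plus strand: tgcggttgctgTGGCAACagatggt
Drc1, chr5:30281370-30281392, plus strand: ctgctttccctTGGCAACggctt
Cfap44, chr16:44394768-44394796, plus strand: ggacgttgctaTGGCAACcgcagtaaacg
Cfap74, chr4:155409192-155409220, plus strand: agcagccttccGTTGCCAtggagctgcgc
Cfap161, chr7:83794862-83794890, minus strand: cctggtcgtcaTGGCAACgaagcacgcta
Dnaaf2, chr12:69198430-69198450, minus strand: aggcgttactaTGGCAACaaa

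A half-site also lies within the full motif where the letters allow it. A match describes these letters and is not a measured binding site. In the immunoprecipitates the 11 members with the half-site had a median log2 fold change of 0.09 (8 above 0), and the 35 without it one of 0.12 (29 above 0). Rfx2, the RFX factor known for its role in spermatids, stood at 292 ± 83.9 CPM in wild-type libraries and 256 ± 41.3 CPM in PNMA4-null libraries, and Foxj1 at 47.1 ± 15.5 CPM in wild-type libraries and 44.1 ± 1.41 CPM in PNMA4-null libraries (SD, n = 3 each; edgeR adjusted p = 1.00 for both). The 9 tested members of a list of 12 ciliary gene regulators, among them RFX factors, Foxj1 and Mybl1, had a median of 0.09 with 0 called.

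The central apparatus gave the members with the most reads. Of its 12 genes, all tested, 0 were called, 10 had a positive log2 fold change, and the median was 0.14. Spag17, a large scaffold of a central apparatus projection (ENSMUSG00000027867, chromosome 3, 99885417 to 100143322), stood at 580, 650 and 581 CPM in wild-type libraries, against 525, 609 and 552 CPM in PNMA4-null libraries. It was among the steadiest members, with a log2 fold change of 0.10 (standard error 0.21) and groups that overlap. Hydin, another large projection protein whose loss causes hydrocephalus (ENSMUSG00000059854, chromosome 8, 110266968 to 110610253), had 511, 707 and 545 CPM in wild-type libraries and 511, 565 and 381 CPM in PNMA4-null libraries. Its highest value was wild-type replicate 2 and its lowest the DKO library, with a log2 fold change of 0.27 (standard error 0.23).

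Cfap65, needed for a normal sperm tail, had 433, 535 and 390 CPM in wild-type libraries, against 466, 390 and 278 CPM in PNMA4-null libraries (log2 fold change 0.26, standard error 0.23). Cfap70 had 186, 192 and 168 CPM in wild-type libraries and 175, 187 and 128 CPM in PNMA4-null libraries, again with the DKO library lowest. In Hydin, Cfap65 and Cfap70 alike the DKO library was the lowest of the 6 and wild-type replicate 2 the highest. Cfap69, a protein of sperm and olfactory cilia, ran the other way, with 133, 158 and 204 CPM in wild-type libraries, against 171, 209 and 266 CPM in PNMA4-null libraries. Its log2 fold change of −0.38 (standard error 0.22) was the most negative of the 66, and the groups overlapped.

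Spag6l, an armadillo-repeat protein of the central apparatus needed for motility, was the single member whose wild-type libraries all lay below the others. It had 102, 107 and 107 CPM in wild-type libraries, against 109, 116 and 137 CPM in PNMA4-null libraries (log2 fold change −0.20, standard error [SE] 0.20, edgeR adjusted p = 1.00). Such separation below was seen in 3.41% of all genes tested. Its near-copy Spag6 can share reads with it, and the sum of both was 134 ± 1.15 CPM in wild-type libraries and 157 ± 20.5 CPM in PNMA4-null libraries (SD, n = 3 each). That sum separated the groups as well, with all wild-type libraries below.

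Radial spoke genes held most of the members that separated the groups upwards. Of 8 spoke genes 7 were tested, with 0 called and a median log2 fold change of 0.21. Rsph1, a protein of the spoke head (ENSMUSG00000024033, chromosome 17, 31255019 to 31277296), had 254, 160 and 178 CPM in wild-type libraries and 128, 204 and 177 CPM in PNMA4-null libraries. Here single libraries decided the order, since the highest value was wild-type replicate 1 and the next Pnma4 KO replicate 2 (log2 fold change 0.21, standard error 0.23). Without wild-type replicate 1 it was −0.015. Rsph6a, the spoke head protein used in sperm, had 95.7, 92.9 and 61.5 CPM in wild-type libraries, against 71.7, 75.4 and 68.6 CPM in PNMA4-null libraries. Rsph4a, its relative in airway cilia, was 1 of the 2 members not tested, with 2, 5 and 2 counts in wild-type libraries and 1, 5 and 3 in PNMA4-null libraries.

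Wild-type libraries lay above all others in Rsph3b, Rsph10b and Rsph14, and outside the spoke list in Drc3. These 4 of 66 members are 6.06%, where 3.28% of all genes tested separated that way. Rsph3b, a spoke stalk protein, had 23.7, 20.7 and 18.3 CPM in wild-type libraries, against 17.8, 13.1 and 15.7 CPM in PNMA4-null libraries (log2 fold change 0.44, SE 0.24, edgeR adjusted p = 1.00). Rsph3a, a close copy of it on the same chromosome, had 48.1, 42.3 and 36.9 CPM in wild-type libraries and 48.6, 40.7 and 40.1 CPM in PNMA4-null libraries. Reads of the copies may be split between them, and their summed level overlapped between groups, at 63.3 ± 8.31 CPM in wild-type libraries and 58.7 ± 6.70 CPM in PNMA4-null libraries (SD, n = 3 each). Rsph10b had 36.0, 37.6 and 33.2 CPM in wild-type libraries and 31.1, 33.0 and 29.8 CPM in PNMA4-null libraries. Rsph14, sparsely counted, had 5.52, 4.09 and 4.30 CPM in wild-type libraries and 1.90, 3.71 and 4.01 CPM in PNMA4-null libraries, from 6 to 32 counts a library.

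The nexin-dynein regulatory complex held the member of lowest p. Drc3 (ENSMUSG00000056598, chromosome 11, 60352881 to 60394342), a leucine-rich repeat subunit of that complex, had 151, 222 and 173 counts in wild-type libraries and 70, 127 and 56 in PNMA4-null libraries. In CPM it had 39.7, 28.4 and 26.6 CPM in wild-type libraries, against 22.2, 18.1 and 18.7 CPM in PNMA4-null libraries. Every wild-type library lay above every other library, and the fitted log2 fold change between the groups was 0.68 (standard error 0.23, 95% interval 0.20 to 1.15). The difference did not pass across all genes (edgeR adjusted p = 1.00, unadjusted p = 0.00766), and the adjusted p ran from 0.301 to 1.00 over all alternatives. Without wild-type replicate 1, its highest library, the value was 0.48 with an unadjusted p of 0.0672. Tom1l2, whose span overlaps that of Drc3, stood at 27.1 ± 4.25 CPM in wild-type libraries and 24.8 ± 1.09 CPM in PNMA4-null libraries (SD, n = 3 each), and reads in the shared part cannot be assigned without strand.

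Drc1 and Drc7, the other subunits of this complex among the members, also had positive values with overlapping groups. Drc1, which anchors the complex to the doublet, had 83.6, 57.9 and 57.6 CPM in wild-type libraries, against 54.3, 67.1 and 56.8 CPM in PNMA4-null libraries. Drc7, needed for sperm tail formation in mice, had 62.8, 48.2 and 33.2 CPM in wild-type libraries and 42.8, 41.6 and 37.1 CPM in PNMA4-null libraries. In both, wild-type replicate 1 was the highest of the 6 libraries, as it was in Drc3.

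**Figure D2:**
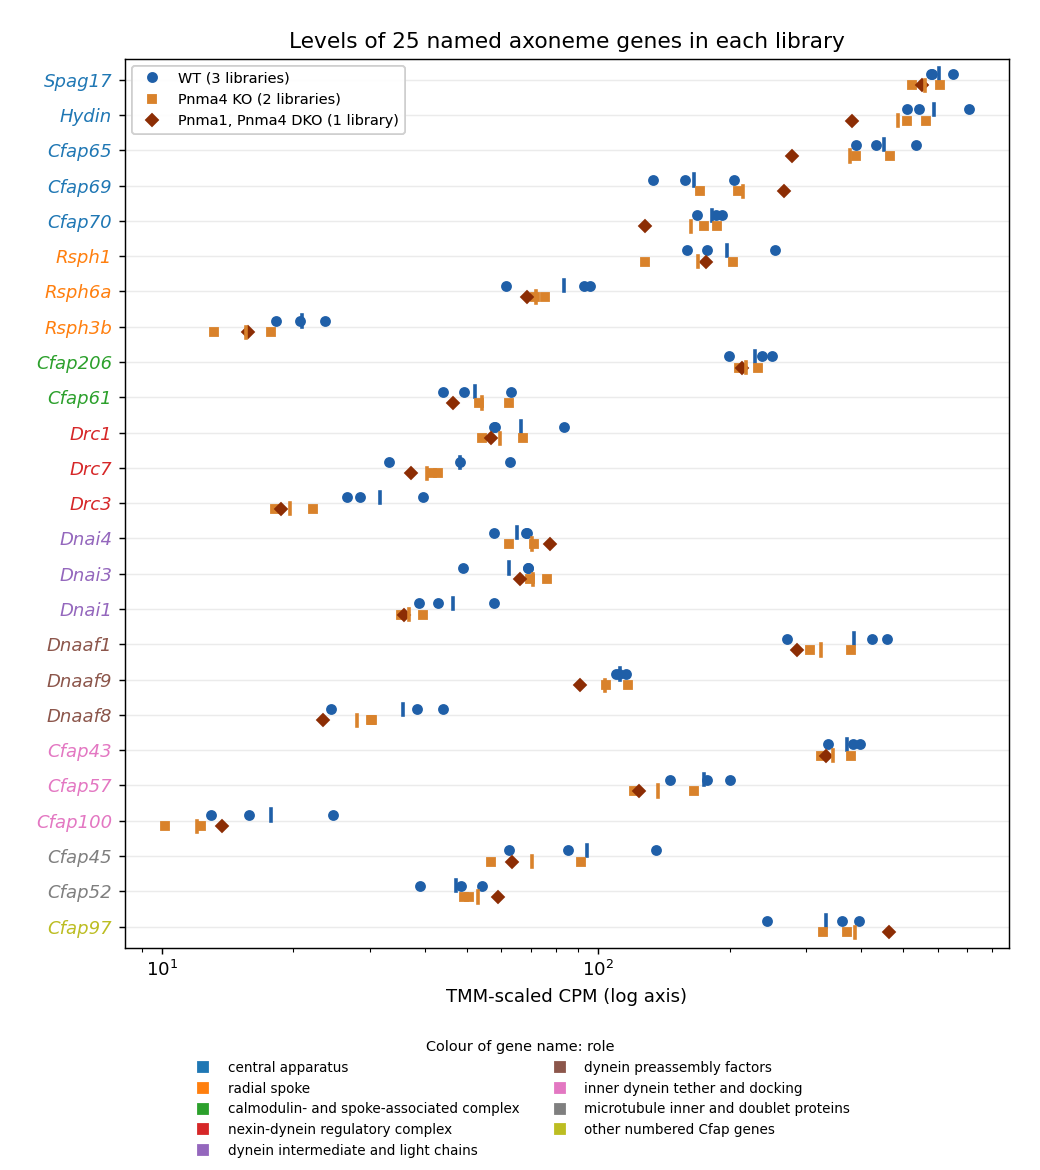
TMM-scaled CPM (log axis) of 25 named axoneme genes, 1 row per gene and coloured by role. Circles are wild-type libraries, squares Pnma4 KO libraries and diamonds the DKO library, and vertical ticks mark the mean of the 3 wild-type libraries and of the 3 lacking PNMA4. Points of both groups overlap in all rows but Drc3 and Rsph3b. Levels of different genes are not to be compared, because CPM is not divided by length.

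Dynein subunits and their assembly factors had values on both sides of 0. Of 7 intermediate and light chain genes 0 were called, with 5 above 0 and a median of 0.07. Dnai1, an intermediate chain of the outer dynein arm, had 57.8, 43.0 and 38.9 CPM in wild-type libraries, against 35.2, 39.6 and 35.8 CPM in PNMA4-null libraries (log2 fold change 0.33, standard error 0.21). The groups met only through Pnma4 KO replicate 2, which lay just above wild-type replicate 3. Dnai3 and Dnai4, intermediate chains of an inner arm dynein, had negative values of −0.18 and −0.11. Dnai3 stood at 69.1, 69.2 and 49.0 CPM in wild-type libraries and 76.2, 69.7 and 66.2 CPM in PNMA4-null libraries, with overlap. Dnai4 stood at 57.8, 68.3 and 68.8 CPM in wild-type libraries and 62.5, 71.1 and 77.6 CPM in PNMA4-null libraries.

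Among 11 preassembly factors 0 were called, with 8 above 0 and a median of 0.11. Dnaaf1, a leucine-rich repeat assembly factor (ENSMUSG00000031831, chromosome 8, 119575235 to 119598454), had 460, 425 and 271 CPM in wild-type libraries, against 307, 381 and 285 CPM in PNMA4-null libraries. Its wild-type libraries thus held both the highest and the lowest value (log2 fold change 0.25, standard error 0.23). Dnaaf9, whose Tetrahymena counterpart packages outer arms for transport, had 111, 116 and 110 CPM in wild-type libraries and 104, 117 and 90.6 CPM in PNMA4-null libraries. Dnaaf8 had 38.4, 44.1 and 24.4 CPM in wild-type libraries, against 30.1, 30.3 and 23.4 CPM in PNMA4-null libraries (log2 fold change 0.34, standard error 0.24). The least counted tested member was Dnaaf4, with 8, 16 and 19 counts in wild-type libraries and 8, 20 and 10 in PNMA4-null libraries.

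Genes that tether or dock inner dyneins had 5 of 5 positive values, with a median of 0.19 and 0 called. Cfap43, which with Cfap44 forms a tether for an inner arm dynein, had 398, 336 and 383 CPM in wild-type libraries, against 324, 380 and 333 CPM in PNMA4-null libraries. Cfap57, required for inner arm assembly in algae, had 201, 177 and 146 CPM in wild-type libraries and 121, 166 and 124 CPM in PNMA4-null libraries (log2 fold change 0.35, standard error 0.21). In Cfap57 the groups overlapped only through Pnma4 KO replicate 2. Cfap100, an inner arm modifier known from Chlamydomonas, had 24.7, 12.9 and 15.8 CPM in wild-type libraries, against 10.2, 12.3 and 13.7 CPM in PNMA4-null libraries (log2 fold change 0.54, SE 0.27, edgeR adjusted p = 1.00).

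Of the 3 genes of the calmodulin- and spoke-associated complex and the spoke base, Cfap206 had 238, 250 and 200 CPM in wild-type libraries and 233, 210 and 214 CPM in PNMA4-null libraries. Cfap61 had 44.2, 63.2 and 49.3 CPM in wild-type libraries, against 62.5, 53.1 and 46.5 CPM in PNMA4-null libraries. Both log2 fold changes were close to 0, at 0.07 and −0.04 (standard errors 0.20 and 0.21). Among 11 genes of proteins inside or along the doublets 10 were tested, with 6 above 0 and a median of 0.09. Cfap45, an inner doublet protein, had 136, 62.5 and 85.3 CPM in wild-type libraries, against 56.8, 91.4 and 63.5 CPM in PNMA4-null libraries (log2 fold change 0.40, standard error 0.25). Cfap52, its neighbour in the doublet, had 54.1, 48.3 and 39.0 CPM in wild-type libraries and 50.5, 49.3 and 58.9 CPM in PNMA4-null libraries (log2 fold change −0.17, standard error 0.21). Cfap141, the other untested member, had 1, 1 and 3 counts in wild-type libraries and 0, 3 and 2 in PNMA4-null libraries.

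The remaining 8 numbered Cfap genes had 6 positive values, a median of 0.08 and 0 calls. Cfap97, a relative of the fly gene hemingway (ENSMUSG00000031631, chromosome 8, 46162095 to 46195590), had 244, 361 and 396 CPM in wild-type libraries, against 327, 373 and 463 CPM in PNMA4-null libraries. The lowest library was wild-type replicate 1 and the highest the DKO library (log2 fold change −0.22, standard error 0.23).

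Although no member passed, positive values outnumbered negative ones, with a small median. Of the 66 members, 50 had a log2 fold change above 0 (75.8%), where 52% of all genes tested did and 61.9% of the 2794 genes at or above the members' median level. The median was 0.11 for the members and 0.01 for all genes tested, and the members spanned −0.38 to 0.68. Scaling by total counts alone moved the median of all genes to 0.32 and that of the members to 0.42, so the gap between them stayed at 0.10. Under that scaling 64 of the 66 members were positive and 50 lay above the median of all genes. It turned the negative values of Cfap97, Dnai3, Dnai4, Cfap61 and Cfap52 positive. The size of the median rested on single libraries. It was 0.058 with 42 positive without wild-type replicate 1, 0.213 with 51 without wild-type replicate 3, 0.190 with 50 without Pnma4 KO replicate 2, and 0.107 with 47 without the DKO library. The members share libraries and scaling, so their signs are not independent. No test was made of the list.

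A list of other axonemal genes that the symbol rule leaves out, without dynein heavy chains, had a median closer to 0. Of 52 listed, among them tektins, docking complex genes and enzymes of the tail, 50 were tested, with 0 called, 31 above 0 and a median of 0.03. The lowest p belonged to Mycbpap, a central apparatus gene, at 160 ± 38.3 CPM in wild-type libraries and 114 ± 15.3 CPM in PNMA4-null libraries (SD, n = 3 each). The log2 fold change came to 0.49 (standard error 0.22, edgeR adjusted p = 1.00), and the groups overlapped. Nme7, an inner doublet protein, had 20.5 ± 1.52 CPM in wild-type libraries and 26.5 ± 2.44 CPM in PNMA4-null libraries, without overlap (SD, n = 3 each). The log2 fold change came to −0.37 (standard error 0.22, edgeR adjusted p = 1.00). For 24 intraflagellar transport genes, whose products carry cargo along growing cilia, the median was 0.04 with 16 above 0 and 0 called. Among them Kif3a, a motor subunit, had a log2 fold change of 0.46 and Ift27, a small GTPase, one of −0.52 (standard errors 0.22 and 0.39, edgeR adjusted p = 1.00 for both). Axonemal dynein heavy chains, also outside the rule, had a median of 0.10, near that of the members. Of these 15 genes, all tested, 11 were above 0 (73.3%), 4 were below and 0 were called. They spanned −1.34 to 0.30, with 2 lower in wild type at an unadjusted edgeR p under 0.05.

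**Figure D3:**
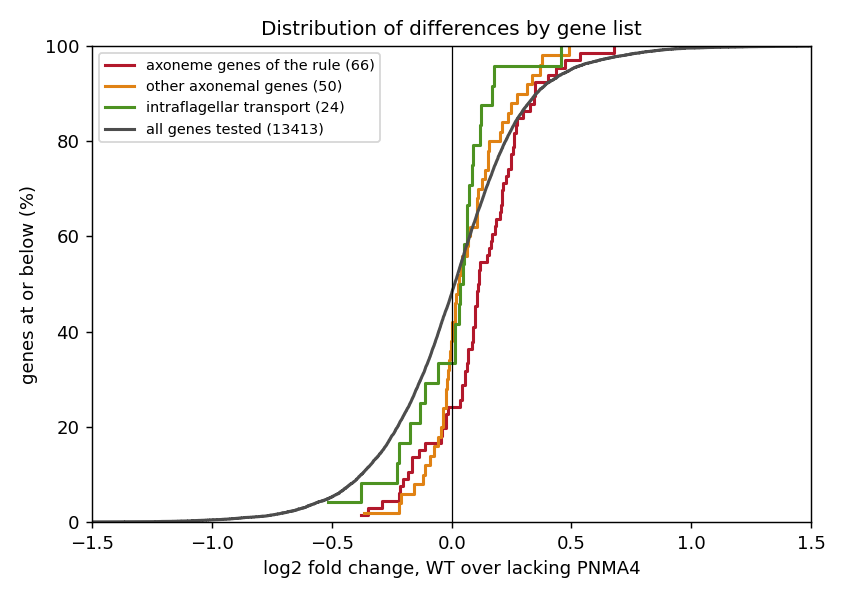
Cumulative share of genes (%) against log2 fold change of wild type over lacking PNMA4, for the 66 tested axoneme genes, 50 other axonemal genes, 24 intraflagellar transport genes and all 13413 genes tested. The curve of the axoneme genes crosses the middle at 0.11 and that of all genes at 0.01. Values beyond 1.5 in size are outside the frame.

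The members also varied between libraries of the same group, and wild-type replicate 1 was most often at an extreme. It was the highest of the 6 libraries in 27 of 66 members (40.9%), where it was highest in 18.3% of all genes tested. It was the lowest in 11 members (16.7%, against 18% of all genes). Wild-type replicate 2 was highest in 17 members (25.8%, against 16.9% of all genes) and lowest in 5 (7.58%, against 16.5%). Wild-type replicate 3 and the Pnma4 KO libraries were each highest in 4 members (6.06%, against 20.1%, 13.2% and 8.66% of all genes). The DKO library was highest in 10 (15.2%, against 22.8%) and lowest in 14 (21.2%, against 21.4%). Pnma4 KO replicate 1 was lowest in 17 members (25.8%, against 17% of all genes), the most of any library. Pnma4 KO replicate 2 was lowest in 3 (4.55%, against 9.21%). Wild-type replicate 3 was lowest in 16 members (24.2%, against 17.9% of all genes). Both groups thus held libraries that were often lowest, and wild-type replicates lay at both ends.

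The library of the highest value is given by role as counts, with no test between roles. All 3 Drc genes, 4 of 5 tether and docking genes and 6 of the 8 other numbered Cfap genes were highest in wild-type replicate 1. Of the 12 central apparatus genes 1 was highest there and 6 in wild-type replicate 2, while 5 of the 12 were lowest in the DKO library, which was lowest in 21.4% of all genes tested. Cfap100 and Cfap45 in wild-type replicate 1 were 1.90 and 1.89 times the mean of the other 5 libraries. At the other end Cfap47, a central apparatus gene on chromosome X, was at 0.57 times and Cfap107, of the inner doublet, at 0.45 times, where Cfap107 had 10 counts. The coefficient of variation over the 6 libraries had a median of 18.1% for the members and 22.5% for all genes tested. The members' median level was also higher, at 42.2 CPM against 11.2 CPM, and no genes of matched level were compared.

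**Figure D4:**
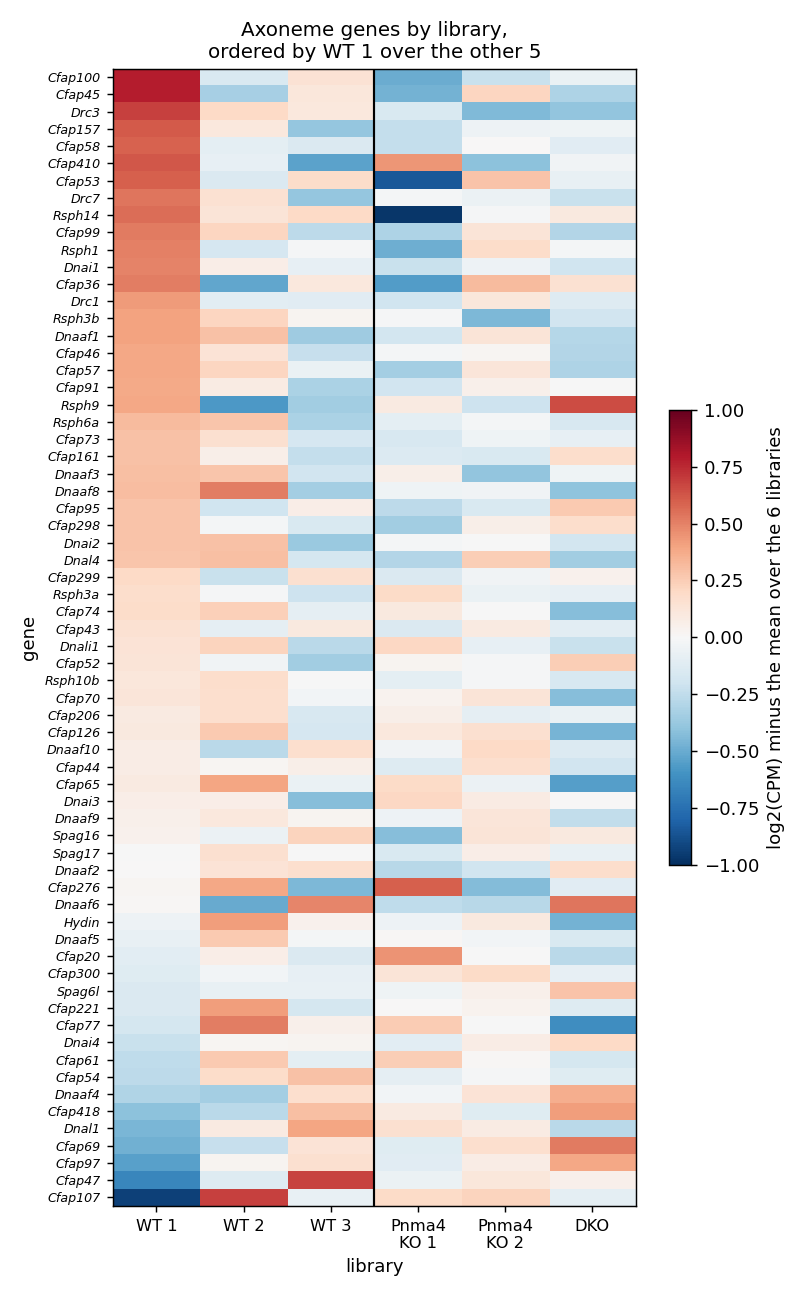
Log2 CPM of the 66 tested axoneme genes minus each gene's mean over the 6 libraries (colour, clipped at 1 in size), with wild-type libraries left of the line and libraries lacking PNMA4 right of it. Genes run from the highest to the lowest ratio of wild-type replicate 1 to the mean of the other 5. The first column turns from high (Cfap100, 1.90 times) to low (Cfap107, 0.45 times).

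The DKO library was set against the Pnma4 KO libraries with each genotype as its own group, which assumes that the lone DKO library varies like the others. Of 66 members 0 were called (edgeR, lowest adjusted p = 0.884), where 0.0746% of all genes tested were, and 0 had an unadjusted p under 0.05, where 6.19% of all genes did. Log2 fold changes of DKO over Pnma4 KO ran from −0.73 to 0.80 with a median of −0.09, and 40 of the 66 members were negative. Among all 13413 genes tested 6772 were negative, and the median was −0.005. The lowest p was that of Cfap65, at −0.62 (standard error 0.36, edgeR adjusted p = 0.884), with 278 CPM in DKO, against 466 and 390 CPM in Pnma4 KO. Hydin and Cfap70 were at −0.50 and −0.51, while Cfap69 and Cfap97 were at 0.49 and 0.40. With 1 library the loss of Pnma1 cannot be told apart from other differences of that library, among them its high share of Rn18s-rs5 and its high Leydig cell markers.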

How the data were processed

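The authors deposited 1 table of raw counts per Ensembl gene, taken without change. The submitters' processing notes name STAR 2.5.2b, bcl2fastq 2.20, DESeq2, featureCounts and the build GRCm38, without roles or settings. The strand setting and the annotation release were not given in the sources used here. All 6 columns were matched to libraries by name, and no pair within a group agreed within sampling noise (chi-square per gene of 12.5 or more). The labels number the replicates without saying that a number pairs libraries, and deviations of same-numbered libraries correlated at 0.04, −0.06 and 0.08, so no block was used.

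Genes were filtered with filterByExpr (minimum count 10, minimum total 15), scaled by TMM over 3138657 to 6367930 counts per library and tested with edgeR 4.0.16 (R 4.3.3), with Benjamini-Hochberg adjustment over all 13413 genes. DESeq2 1.42.0 and limma 3.58.1 were alternatives. The gene-wise fit was checked on simulated data. CPM values are mean ± SD. The series' design text calls the 3 lysates per group biological replicates. Of 68 members, 56 matched RefSeq genes of GRCm38.p6 by symbol or synonym, 30 of them with another gene overlapping their span, and promoter sequences are RefSeq's. Members named were the 8 of lowest p, the 10 with most reads, the first 2 by reads in each role, and those without overlap past 0.58; further members were named after their values were seen. The members, roles and lists were chosen with earlier results of these data known.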

Additional observations from a re-analysis of the deposited data

How the results depend on the processing

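The count of members called stayed at 0 in wild type over lacking PNMA4 under every alternative: 3 other scalings, DESeq2, limma-voom, no filter, a minimum count of 50, the replicate block and leaving out each library. With the replicate block the count was 0 and the median log2 fold change 0.117. For DKO over Pnma4 KO the count was also 0 under other scalings and filters. The median of 0.111 was 0.418 without scaling factors, where the median of all genes was 0.315, and ran from 0.058 to 0.213 with 1 library left out. Of 350 values of the 25 named members under 14 alternatives, 340 kept their direction and their side of the threshold. Those that changed sign, none of them called, were without scaling factors Cfap97 (0.142), Dnai4 (0.215), Dnai3 (0.120), Cfap61 (0.253) and Cfap52 (0.164), without wild-type replicate 1 Rsph1 (−0.015), Drc1 (−0.049) and Cfap61 (0.053), and for Cfap61 also without wild-type replicate 3 (0.007) or Pnma4 KO replicate 1 (0.069). With 1 library left out, Rsph1 ran from −0.015 to 0.372, Drc1 from −0.049 to 0.253 and Cfap61 from −0.203 to 0.069. The cause was not tested. Low counts limit Dnaaf4, Rsph14 and Rsph9, and 3 libraries per group limit every comparison.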
